A study of Mus musculus with 16 samples.

Results

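Hearts of mouse embryos that had lost both alleles of Ing5 and kept both alleles of Ing4 were compared with wild-type hearts by RNA sequencing at embryonic day 10.5. The comparison used the 4 libraries with the genotype Ing5-/- and the 4 libraries with both genes intact, chosen by their column labels from a table of 16 hearts. The other 8 hearts had lost 1 Ing4 allele, with Ing5 intact (Ing4+/-, 4 hearts) or lost (Ing4+/- Ing5-/-, 4 hearts), and entered the statistical fit so that all 4 genotypes shared 1 estimate of the spread. The labels name no treatment, strain or Cre driver, and do not say which part of each gene was deleted. They give a litter and a genotype for each library but not how many hearts it holds; a library is called a heart here, and p-values measure the spread between libraries. Each held 19753100 to 35664331 counted reads. By litter (6 among these 8 libraries), the Ing5-/- hearts 1 and 2 shared litter 1, Ing5-/- 3 was of litter 2 and Ing5-/- 4 of litter 7, while the wild-type hearts came from litters 4, 5, 5 and 6. The 2 genotypes compared thus shared no litter, so litter and genotype cannot be told apart without the other 8 hearts.

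ING5 is a member of the inhibitor of growth family, small nuclear proteins whose PHD finger binds histone H3 trimethylated at lysine 4. It is a subunit of acetyltransferase complexes built on HBO1 (gene Kat7) or on MOZ and MORF (Kat6a and Kat6b), held together by BRPF or JADE scaffold proteins, and its close relative ING4 sits in HBO1 complexes. At this age the myocardium is being covered by the epicardium, a sheet of cells that comes from the proepicardium and later gives rise to fibroblasts and mural cells of the coronary vessels. The series names epicardial development as a subject, so epicardial genes were described apart.

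Among the 8 hearts compared, 1 library stood apart before any test. Ing5-/- 1 had 79 genes at 5 or more CPM (the read count of a gene scaled to the library size with TMM factors) and at more than 2 times the highest of the other 15 hearts, against 0 genes in each of the other 7 hearts compared. The summed level of 28 epicardial genes was 3103 CPM, against 1155 to 1637 CPM in the other 15 hearts, and 23 of the 28 were highest in this heart. The sum of 25 extracellular matrix genes was 11565 CPM against 8530 to 11284 CPM, with 12 of the 25 highest. The summed level of 22 Hox genes, which mark position along the body axis, was 53.8 CPM against 11.1 to 26.6 CPM. Kcnq1ot1, a long nuclear RNA of an imprinted region, was at 58.0 CPM against at most 13.4 CPM (it lies antisense to Kcnq1, and use of strand in the counting is not stated), and Malat1, another nuclear RNA, at 557 CPM against at most 167 CPM. Lum, a matrix proteoglycan of fibroblasts, was at 33.8 CPM against at most 10.7 CPM. The sum of 26 cardiomyocyte genes was 33399 CPM against 43740 to 53927 CPM, with 16 of the 26 lowest in this heart.

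Lists of other tissues went in different directions in Ing5-/- 1 relative to the wild-type mean. Endoderm and liver stood at 1.60 times that mean, lung and gut at 1.89 times and skeletal and pharyngeal muscle at 1.92 times. Epicardium stood at 2.01 times and Hox clusters at 4.04 times. The neuron list and the limb and body wall list lay nearer to the mean. The mesonephros, proepicardium and neural crest lists lay below it. The sum of 27 endoderm and liver genes was 120 CPM against 68.5 to 115 CPM. Of the 27, 13 were highest in this heart and 4 were at 0 there. Alb, the albumin gene of liver cells, was at 14.6 CPM in Ing5-/- 1, at 7.33 CPM in its litter mate Ing5-/- 2 and at 0 in Ing5-/- 3 and 4. The sum of 14 skeletal and pharyngeal muscle genes was 100.3 CPM against 48.0 to 62.0 CPM, with Actn3, an actinin of fast muscle fibres, at 33.3 CPM. The proepicardium list (1542 CPM against 1552 to 2024) and the neural crest list (227 CPM against 254 to 333) were lowest in this heart. Of the other 8 hearts, Ing4+/- 4 lay farthest out on the first principal component of all 16, and Ing4+/- Ing5-/- 2 had 18 genes at more than 2 times the highest other heart; both enter the shared fit. In bulk tissue, fewer cells of a type and less RNA per cell cannot be told apart. Folds and tests below are given with all hearts and without this library, unless the sentence names 1 of these fits.

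**Figure D1:**
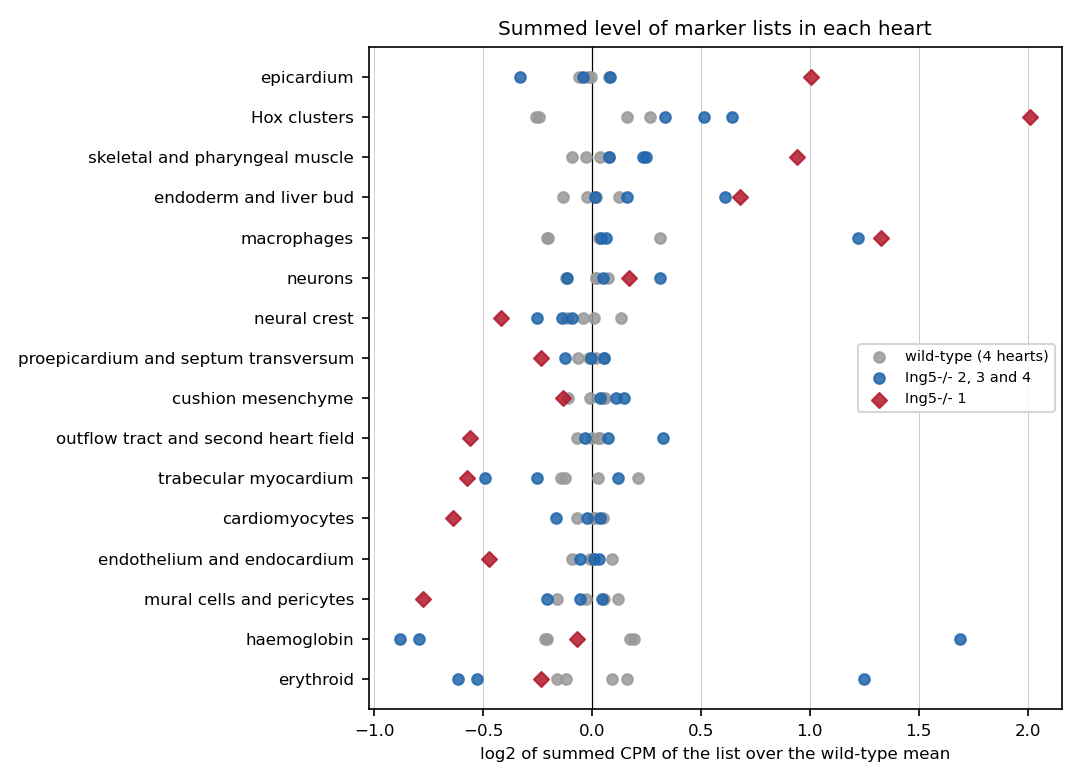
Summed CPM of 16 marker lists in each of the 8 hearts, as log2 of the ratio to the wild-type mean (horizontal axis), with grey circles for wild-type, blue circles for Ing5-/- 2, 3 and 4 and red diamonds for Ing5-/- 1. Ing5-/- 1 is the highest heart for epicardium (3103 CPM) and Hox clusters (53.8 CPM) and the lowest for cardiomyocytes (33399 CPM), and Ing5-/- 4 is the highest for haemoglobin.

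The targeted gene was read first. Ing5 (gene ID 66262, chromosome 1, 93803926 to 93822101, GRCm38.p6) was at 29.3, 23.7, 18.5 and 22.4 CPM in Ing5-/- 1 to 4 and at 35.1, 36.9, 28.9 and 33.2 CPM in wild-type 1 to 4. Ing5-/- 1 lay above the lowest wild-type heart, and the other 3 Ing5-/- hearts lay below all wild-type hearts. The log2 fold change was -0.51 ± 0.12 (SE) with all hearts (edgeR adjusted p = 0.275; DESeq2 adjusted p = 0.0449) and -0.64 ± 0.12 without Ing5-/- 1 (edgeR 0.123; DESeq2 0.00107). Much of the transcript was thus still counted, and since the deleted part is not given, these counts do not check the protein. In the Ing4+/- Ing5-/- hearts Ing5 stood at 19.2 to 25.1 CPM, against 33.7 to 42.3 CPM in Ing4+/- hearts.

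Ing4 (gene ID 28019, chromosome 6), the intact relative, was at 60.6, 51.9, 47.8 and 43.5 CPM in Ing5-/- hearts and at 42.9, 28.2, 44.4 and 42.6 CPM in wild-type hearts. The groups overlapped, and the difference of 0.37 ± 0.12 did not pass (edgeR adjusted p = 0.396; 0.27 ± 0.12, adjusted p = 0.918, without Ing5-/- 1). Across 17 genes of the ING and MYST acetyltransferase complexes the median log2 fold change was -0.02 with all hearts and 0.02 without Ing5-/- 1. Kat7, the catalytic subunit HBO1, was at 78.1 to 93.4 CPM in Ing5-/- and at 89.4 to 93.4 CPM in wild-type hearts, with a log2 fold change of -0.04 ± 0.06 (edgeR adjusted p = 0.87; 0.02 ± 0.06, adjusted p = 0.991, without Ing5-/- 1). Within 10 Mb of Ing5, where flanking DNA of the targeted chromosome can be carried along, 88 genes were tested and edgeR called 0 of them; 11 had an unadjusted p under 0.05 (all genes: 9.59%) and 9 without Ing5-/- 1 (all genes: 5.19%), and DESeq2 called 1, Ing5 itself.

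Few differences between the genotypes passed across all genes. With all 4 Ing5-/- hearts, edgeR called 2 of 15785 genes (0.0127%), Cox4i2 and Fcrls, both higher, and 1514 genes (9.59%) had an unadjusted p under 0.05, 962 higher (6.09%) and 552 lower (3.5%). Without Ing5-/- 1 it called 0 of 15877 genes, with 824 (5.19%) at an unadjusted p under 0.05 (491 higher, 3.09%; 333 lower, 2.1%) and a smallest adjusted p of 0.104. DESeq2 called 43 genes (0.272%; 36 higher, 0.228%; 7 lower, 0.0443%) with all hearts and 27 (0.17%; 22 higher, 0.139%; 5 lower, 0.0315%) without Ing5-/- 1, and 14 genes were in both sets; limma-voom called 0 in either. The 14 were Cacna1s, Ccl6, Cox4i2, Egln3, Fcrls, Fmr1nb, Ing5, Notch3, Ptprc, Tac2, Tnni2, Ugp2, Vegfa and Zadh2. The values of Ing5-/- and wild-type hearts did not overlap for 749 genes with all hearts (4.75%; 2.48% higher, 2.27% lower) and for 1112 without Ing5-/- 1 (7%; 3.56% higher, 3.44% lower). Both edgeR calls were lost without robust estimation of the spread, which was adopted after a first fit without it (adjusted p = 0.0786 for each), and without Ing4+/- 4 and Ing4+/- Ing5-/- 2 (0.0602 for each); with those 2 libraries and Ing5-/- 1 all left out, edgeR called 4 genes, Cox4i2, Fmr1nb, Ing5 and Vegfa. With litter as a block, the genotypes are compared through the litters they share with the other 2 genotypes. Ing5-/- 3, and wild-type 2 and 3, share a litter with no other genotype and have no weight in the blocked folds. These folds rest on Ing5-/- 1, 2 and 4 (2 and 4 in the fit without Ing5-/- 1) against wild-type 1 and 4. Under the block edgeR called 0 genes in either fit and DESeq2 1, Cebpb, which was in neither set without the block.

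Cox4i2 encodes an isoform of a cytochrome c oxidase subunit that is induced by low oxygen and is also known as a pericyte gene. Cox4i2 (gene ID 84682, chromosome 2, 152753916 to 152765039) was at 9.36, 10.7, 12.3 and 7.75 CPM in Ing5-/- 1 to 4 and at 4.96, 6.04, 4.47 and 4.53 CPM in wild-type 1 to 4. All 4 Ing5-/- hearts lay above all wild-type hearts, with the heart that stands apart inside the Ing5-/- range. It rose by 1.00 ± 0.16 on the log2 scale (edgeR adjusted p = 0.044, or 0.0786 without robust estimation; DESeq2 6e-05). Without Ing5-/- 1 the fold was as large, 1.03 ± 0.17, but with edgeR the adjusted p was 0.104 (DESeq2 0.000383). With edgeR the call was also lost without Ing5-/- 3 (adjusted p = 0.115) and without wild-type 1, 2, 3 or 4 (0.0822 to 0.272), while DESeq2 kept it in each of the 8 fits that left out 1 of the 8 hearts. With litter as a block the log2 fold change was 0.84 (edgeR adjusted p = 0.907).

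Fcrls, an Fc receptor-like gene of tissue macrophages and microglia, was near the floor of counting. Its CPM was 3.18, 2.84, 0.714 and 0.717 in Ing5-/- 1 to 4 and 0.278, 0.0345, 0.0379 and 0.204 in wild-type 1 to 4. The groups did not overlap, but the Ing5-/- hearts fell into a high pair from litter 1 and a low pair from litters 2 and 7. It rose by 3.81 ± 0.62 (edgeR adjusted p = 0.044; DESeq2 1.38e-05), and the log2 fold change without Ing5-/- 1 was 3.43 ± 0.61 (edgeR adjusted p = 0.123; DESeq2 0.000449). The edgeR call was lost when any wild-type heart was left out (adjusted p 0.110 to 0.272), and with litter as a block the log2 fold change was 2.59 (edgeR adjusted p = 0.907).

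**Figure D2:**
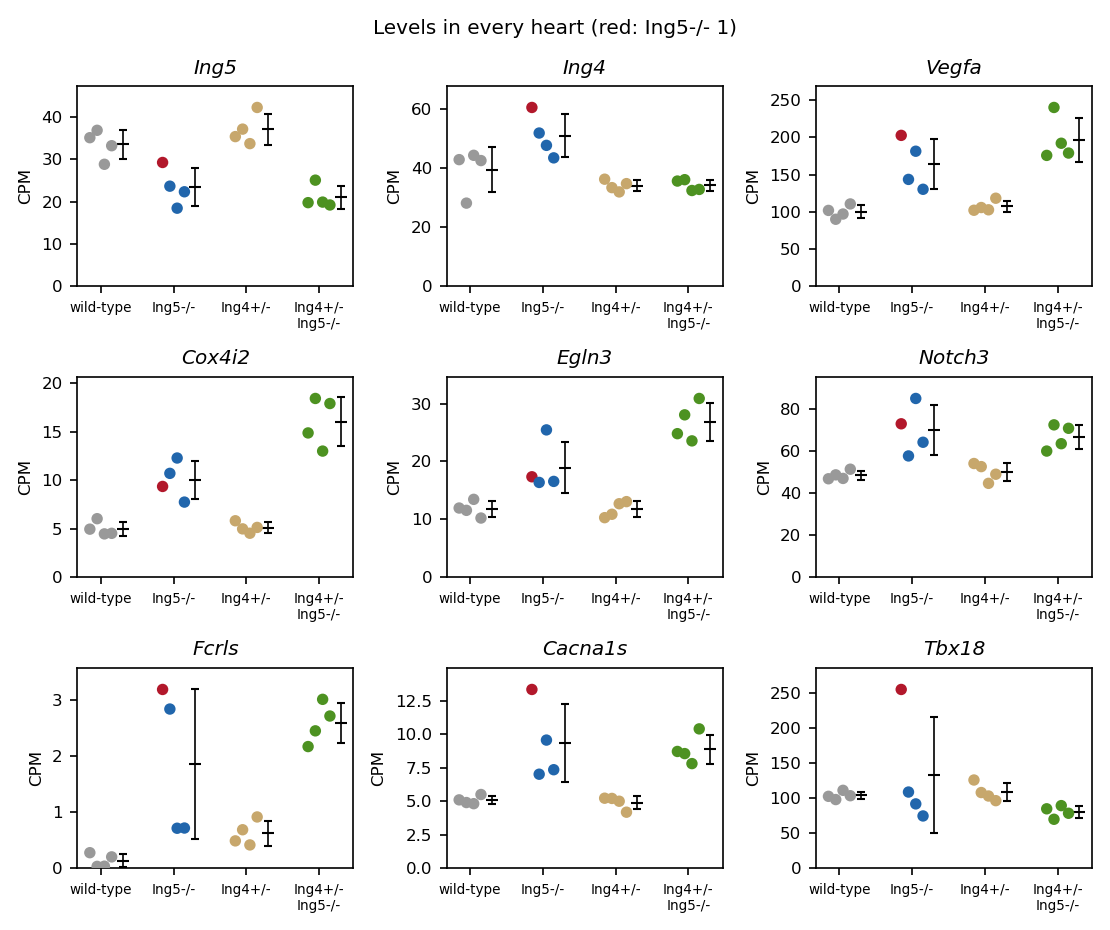
CPM (vertical axis, from 0) of 9 genes in each of the 16 hearts by genotype, with Ing5-/- 1 in red and the mean ± SD of the 4 hearts beside each group. Vegfa, Cox4i2, Egln3, Notch3, Fcrls and Cacna1s are higher in all 4 Ing5-/- than in all 4 wild-type hearts, while for Tbx18 Ing5-/- 1 (255 CPM) lies far above all others.

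Genes of glycolysis and of the response to low oxygen had mostly higher levels, in more members without Ing5-/- 1 than with it. These genes are switched on by hypoxia-inducible factors, which are held down by the prolyl hydroxylases EGLN1 and EGLN3 when oxygen is present and which bind a short core sequence in their targets. Of 30 such genes, edgeR called 0, and 15 had an unadjusted p under 0.05 and a higher level (all genes: 6.09%). The median log2 fold change was 0.25, against 0.01 for all genes, and 27 of 30 were above 0. Without Ing5-/- 1 the median was 0.37, all 30 were above 0 (all genes: 52.1%), 23 had an unadjusted p under 0.05 (all genes: 3.09%), and 19 lay higher in all 3 remaining Ing5-/- hearts than in all wild-type hearts (all genes: 3.56%). DESeq2 called 4 of the 30 with all hearts (Vegfa, Egln3, Ndrg1 and P4ha2), against 0.228% of all genes called higher. Without Ing5-/- 1 it called 7 (Vegfa, Egln3, Pdk1, Pfkl, Pgk1, Slc16a3 and Slc2a3), against 0.139% of all genes called higher. The list was chosen with earlier results of these hearts known.

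The promoters show where the hypoxia core lies in genes of the glycolysis and hypoxia list. The core was searched as ACGTG or GCGTG on both strands in the 250 bases before the start of each gene (RefSeq, GRCm38.p6). It was found in 22 of the 28 list members with a promoter (78.6%), in 55.2% of 11871 promoters of tested genes and in 38.6% of 27025 promoters in all. The list holds known genes of this response, so its share describes the list and says nothing about these hearts. The E-box CACGTG, whose letters contain the core ACGTG, was found in 3 of the 28 (10.7%), in 8.31% of tested genes and in 6.05% of all. The 4 promoters printed are those of a glycolytic enzyme, a lactate transporter, an oxygen sensor and the vascular growth factor, each 5′ to 3′ on the strand of its gene, with the core in capitals in either direction. The Vegfa window holds none, which says only that these letters are not in these 250 bases.
Pgk1 (GRCm38.p6, chrX:106186850-106187099, + strand): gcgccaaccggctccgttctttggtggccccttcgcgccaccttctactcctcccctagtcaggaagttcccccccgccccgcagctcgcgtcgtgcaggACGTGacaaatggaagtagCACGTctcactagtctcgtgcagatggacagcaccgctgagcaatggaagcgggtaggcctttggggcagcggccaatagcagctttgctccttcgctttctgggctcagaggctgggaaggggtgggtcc
Slc16a3 (GRCm38.p6, chr11:120948817-120949066, + strand): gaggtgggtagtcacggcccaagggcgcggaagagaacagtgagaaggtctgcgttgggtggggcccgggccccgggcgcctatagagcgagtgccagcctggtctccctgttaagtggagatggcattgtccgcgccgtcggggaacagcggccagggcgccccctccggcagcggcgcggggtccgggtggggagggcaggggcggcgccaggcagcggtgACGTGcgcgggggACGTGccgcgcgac
Egln3 (GRCm38.p6, chr12:54203875-54204124, - strand): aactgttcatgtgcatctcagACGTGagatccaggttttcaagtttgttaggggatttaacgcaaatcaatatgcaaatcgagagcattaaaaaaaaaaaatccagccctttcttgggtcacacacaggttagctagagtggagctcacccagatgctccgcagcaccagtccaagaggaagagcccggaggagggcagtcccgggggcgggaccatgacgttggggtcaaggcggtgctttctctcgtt
Vegfa (GRCm38.p6, chr17:46032378-46032627, - strand): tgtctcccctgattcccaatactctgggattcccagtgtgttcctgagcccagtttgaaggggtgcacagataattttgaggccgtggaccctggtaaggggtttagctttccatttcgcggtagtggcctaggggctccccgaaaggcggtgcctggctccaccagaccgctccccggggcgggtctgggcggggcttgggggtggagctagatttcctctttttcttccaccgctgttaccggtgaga

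Of the secreted factors, Vegfa, the main growth signal for blood vessels, was at 203, 144, 182 and 130 CPM in Ing5-/- 1 to 4 and at 102, 90.1, 97.1 and 111 CPM in wild-type 1 to 4. All Ing5-/- hearts were above all wild-type hearts. The log2 fold change was 0.72 ± 0.12 (edgeR adjusted p = 0.0681; DESeq2 6.64e-05) and 0.60 ± 0.11 without Ing5-/- 1 (edgeR 0.163; DESeq2 0.00107). With edgeR it passed without Ing5-/- 2 (adjusted p = 0.0284) or Ing5-/- 4 (0.00808), and not without Ing5-/- 3 (0.181), without any 1 wild-type heart (0.110 to 0.393) or with litter as a block (0.62, adjusted p = 0.907). Adm, the vasodilator adrenomedullin, was at 15.4, 4.59, 13.3 and 12.5 CPM against 5.35 to 11.3 CPM in wild-type hearts, so the groups overlapped.

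Of the oxygen sensors, Egln3 (gene ID 112407, chromosome 12) was at 17.4, 16.4, 25.4 and 16.6 CPM in Ing5-/- hearts and at 10.2 to 13.5 CPM in wild-type hearts. The groups did not overlap, and Ing5-/- 3 lay above the rest of its genotype. The log2 fold change was 0.68 ± 0.14 (edgeR adjusted p = 0.23; DESeq2 0.0107) and 0.72 ± 0.15 without Ing5-/- 1 (edgeR 0.193; DESeq2 0.0108). Egln1, the main sensor under normal oxygen, was at 120, 170, 233 and 178 CPM against 136 to 158 CPM, below the wild-type range in Ing5-/- 1 and above it in the other 3. Among targets in collagen modification, P4ha2 was at 54.7, 47.9, 79.6 and 47.9 CPM against 32.4 to 47.0 CPM in wild-type hearts (0.59 ± 0.15, edgeR adjusted p = 0.338, DESeq2 0.0441; 0.61 ± 0.17, edgeR 0.573, DESeq2 0.0738, without Ing5-/- 1).

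The enzymes of glycolysis separated Ing5-/- 1 from the other Ing5-/- hearts. Pdk1 is a mitochondrial kinase that inhibits pyruvate dehydrogenase. It was at 208 CPM in Ing5-/- 1 and at 322, 424 and 325 CPM in Ing5-/- 2, 3 and 4. In wild-type hearts it was at 247 to 275 CPM. Pfkl, a phosphofructokinase, was at 334 CPM in Ing5-/- 1 and at 470, 602 and 503 CPM in the others, against 381 to 426 CPM. Slc16a3, the exporter of lactate, was at 302 CPM in Ing5-/- 1 and at 385, 571 and 412 CPM in the others, against 298 to 359 CPM. In all 3 genes the Ing5-/- hearts 2, 3 and 4 lay above the wild-type range, and Ing5-/- 3 was the highest. With all hearts the log2 fold changes were 0.30 ± 0.15 for Pdk1, 0.25 ± 0.12 for Pfkl and 0.32 ± 0.13 for Slc16a3 (edgeR adjusted p 0.528, 0.52 and 0.479; DESeq2 0.418, 0.446 and 0.316). Without Ing5-/- 1 they were 0.46 ± 0.10 for Pdk1, 0.39 ± 0.08 for Pfkl and 0.45 ± 0.10 for Slc16a3 (edgeR adjusted p 0.193, 0.193 and 0.277; DESeq2 0.0108, 0.0075 and 0.0263).

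Slc2a3, a glucose transporter, did not depend on Ing5-/- 1 for its separation. It was at 109, 131, 222 and 146 CPM in Ing5-/- 1 to 4 and at 81.6 to 104 CPM in wild-type hearts. The log2 fold change was 0.75 ± 0.21 (edgeR adjusted p = 0.349, DESeq2 0.114). Without Ing5-/- 1 the log2 fold change was 0.88 ± 0.21 (edgeR adjusted p = 0.479, DESeq2 0.0483), so DESeq2 called Slc2a3 only in that fit. Pgk1, phosphoglycerate kinase, was at 169, 219, 232 and 193 CPM against 124 to 177 CPM, and Ing5-/- 1 alone fell inside the wild-type range. The muscle isoform Pfkm (117, 122 and 121 CPM in Ing5-/- 2 to 4 against 112 to 125, with Ing5-/- 1 below that range) and the hexokinase Hk1 (297, 582, 630 and 561 CPM against 521 to 571) overlapped wild-type. Summed over the list, the hearts stood at 9131, 12520, 16610 and 12664 CPM against 10654 to 11913 CPM in wild-type. The sum in Ing5-/- 1 was the lowest of the 8 hearts, and 14 of the 30 members were at their lowest of all 16 hearts there. With both Ing5-/- hearts of litter 1 left out, 2 Ing5-/- hearts remained, and edgeR called 24 genes (12 higher, 12 lower). They held 6 of the 30: Egln3, Hk2, Pdk1, Pfkl, Slc16a3 and Slc2a1. Among fits without Ing5-/- 1 and a further library, which gave 0 to 24 calls, this one gave the most. With litter as a block and all hearts, the log2 fold changes were -0.0252 for Pdk1, 0.12 for Pfkl, 0.16 for Slc16a3, 0.14 for Pgk1, 0.34 for Slc2a3, 0.35 for P4ha2, 0.52 for Egln3 and 0.62 for Vegfa. Without Ing5-/- 1 the block gave 0.12 for Pdk1, 0.25 for Pfkl, 0.25 for Slc16a3, 0.22 for Pgk1, 0.40 for Slc2a3, 0.29 for P4ha2, 0.49 for Egln3 and 0.47 for Vegfa. Of these 8 genes edgeR called none under the block (adjusted p 0.883 to 0.994). Ing5-/- 3, the highest Ing5-/- heart for all of them but Vegfa, shares no litter and has no weight in these blocked folds.

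**Figure D3:**
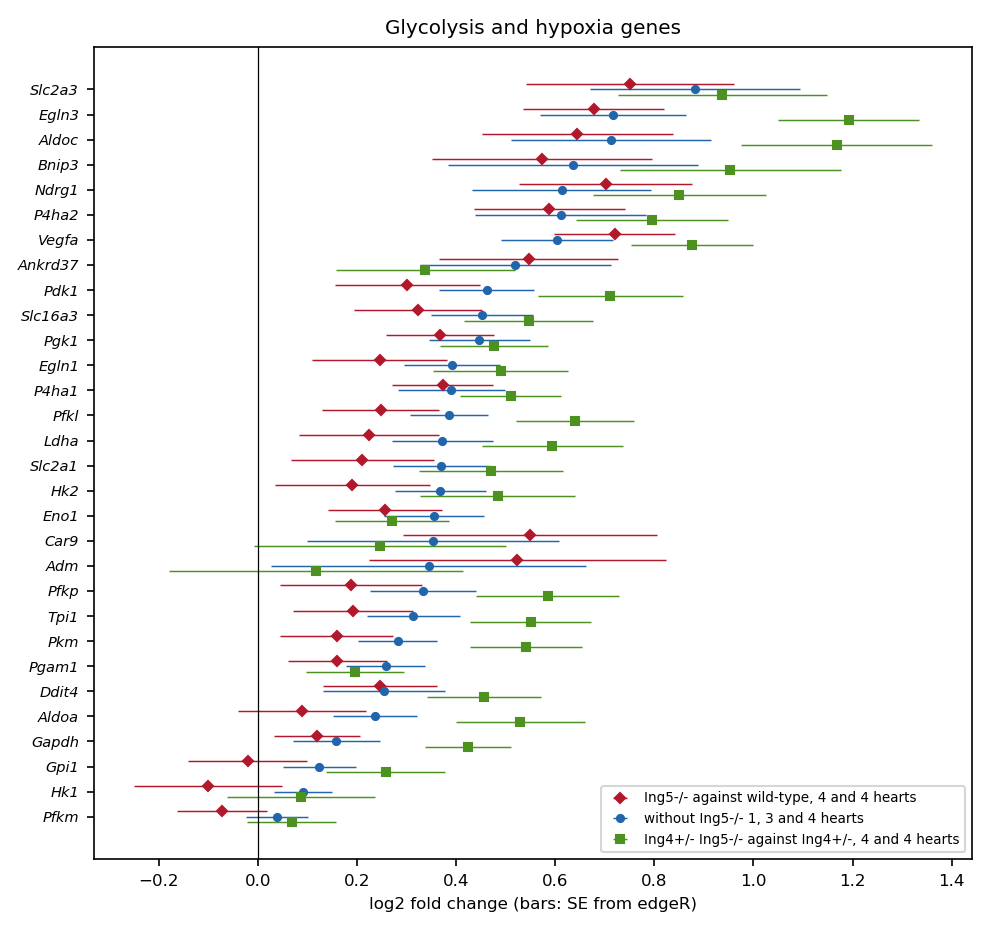
Log2 fold changes with their SE (horizontal axis) of 30 genes of glycolysis and the hypoxia response, in red diamonds for all 4 Ing5-/- hearts, in blue circles without Ing5-/- 1 and in green squares for Ing4+/- Ing5-/- against Ing4+/- hearts. All 30 blue points lie above 0, and Pfkm and Hk1 stand at the lower end.

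The summed level of macrophage genes was higher in the 2 Ing5-/- hearts of litter 1, while some members were higher in all Ing5-/- hearts. The summed CPM of 18 genes was 104 and 96.2 in Ing5-/- 1 and 2, 42.4 and 43.1 in Ing5-/- 3 and 4, and 42.1, 51.3, 35.7 and 35.9 in wild-type 1 to 4, so Ing5-/- 3 and 4 lay inside the wild-type range. Their part in the differences of other genes was not tested. The median log2 fold change was 1.77 with all hearts and 1.40 without Ing5-/- 1, with 15 and 12 of 18 higher at an unadjusted p under 0.05 (all genes: 6.09% and 3.09%). In each fit, 5 of the 18 lay higher in all Ing5-/- hearts fitted than in all wild-type hearts (all genes: 2.48% and 3.56%). EdgeR called 0. DESeq2 called 6 with all hearts (all genes: 0.228% higher), namely Ptprc, Cx3cr1, Fcgr3, C1qa, Tyrobp and Mrc1. Without Ing5-/- 1 it called 1, Ptprc (all genes: 0.139% higher). Ptprc, the leukocyte antigen CD45, was at 1.14, 1.72, 0.555 and 0.316 CPM against 0.0345 to 0.19 CPM in wild-type hearts (2.97 ± 0.62, edgeR adjusted p = 0.23; 2.86 ± 0.66, adjusted p = 0.272, without Ing5-/- 1). Cx3cr1, the fractalkine receptor, was at 5.59, 4.62, 0.872 and 1.78 CPM against 0.611 to 1.10 CPM, and Ing5-/- 3 lay inside the wild-type range. Ccl6, a chemokine outside the list, had reads in all 4 Ing5-/- hearts (1.43, 1.69, 0.317 and 0.115 CPM) and none in any wild-type heart. With all 4 Ing5-/- hearts pooled it was at least 29.1-fold higher, against a floor of 3 counts over the wild-type group. The 2 hearts of litter 1 were the highest, so this bound does not hold for each heart. H2-Ab1, a chain of the class II antigen-presenting molecule, was highest in another heart, at 4.13, 6.66, 13.9 and 5.51 CPM against 2.95 to 3.90 CPM (1.09 ± 0.31, edgeR adjusted p = 0.338, DESeq2 0.0612; 1.30 ± 0.28, edgeR 0.272, DESeq2 0.00927, without Ing5-/- 1). With litter as a block, where Ing5-/- 3 has no weight, H2-Ab1 was at 0.60 and, without Ing5-/- 1, at 0.74. In Ing4+/- Ing5-/- hearts, of litters 1, 4, 6 and 7, the sum of the 18 macrophage genes was 70.6 to 106 CPM. In Ing4+/- hearts it was 43.2 to 51.6 CPM. Between those 2 genotypes 17 of the 18 were above 0, with a median of 1.60, and edgeR called 2 higher (all genes: 0.76%).

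Of mural cell genes, Notch3 and Cox4i2 were the 2 of 12 tested that DESeq2 called, in both fits (all genes: 0.228% and 0.139% higher). Notch3, the receptor that guides pericytes and smooth muscle cells, was at 73.2, 57.8, 85.2 and 64.4 CPM in Ing5-/- hearts and at 47.0, 48.8, 47.1 and 51.5 CPM in wild-type hearts. The groups did not overlap, and the log2 fold change was 0.53 ± 0.10 (edgeR adjusted p = 0.127; DESeq2 0.0028) and 0.51 ± 0.11 without Ing5-/- 1 (edgeR 0.193; DESeq2 0.0125). With edgeR it passed without Ing5-/- 2 or without Ing5-/- 4. The list as a whole had a median of 0.21 with all hearts and of -0.01 without Ing5-/- 1. Its other members include Pdgfrb, the receptor for the platelet-derived signal to pericytes (46.5, 48.0, 28.3 and 32.8 CPM against 32.4 to 47.3), and Abcc9, a subunit of a potassium channel (102, 197, 171 and 160 CPM against 179 to 200). Ndufa4l2 had the largest log2 fold change of the list, 1.26 with all hearts and 1.42 without Ing5-/- 1. Neither edgeR nor DESeq2 called it in these 2 fits. Between Ing4+/- Ing5-/- and Ing4+/- hearts it was 3.02. Of the 12, 6 were above 0 and 6 below in each fit, and 3 were higher at an unadjusted p under 0.05 (all genes: 6.09% and 3.09%).

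The direction of the epicardial genes depended on 1 library. Wt1, a transcription factor of the epicardium, was at 150 CPM in Ing5-/- 1, at 67.7, 68.6 and 48.5 CPM in Ing5-/- 2, 3 and 4 and at 66.3 to 68.2 CPM in wild-type hearts. Its log2 fold change was 0.30 ± 0.25 with all hearts and -0.14 ± 0.10 without Ing5-/- 1 (edgeR adjusted p 0.727 and 0.991). Tcf21, which marks fibroblast precursors, was at 106, 47.0, 34.1 and 29.1 CPM against 44.1 to 55.3 CPM (0.14 ± 0.35, then -0.42 ± 0.21; adjusted p 0.917 and 0.987). In both genes Ing5-/- 1 was the highest and Ing5-/- 4 the lowest of the 8 hearts.

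Tbx18, a T-box factor of the epicardium and its precursors, was at 255, 109, 91.9 and 74.7 CPM against 98.1 to 111 CPM (0.35 ± 0.30, then -0.18 ± 0.11). Upk3b, a mesothelial membrane protein, was at 388, 185, 113 and 91.2 CPM against 157 to 173 CPM (0.21 ± 0.36, then -0.37 ± 0.23). Aldh1a2, the enzyme that makes retinoic acid, was at 96.9, 41.8, 20.1 and 20.7 CPM against 33.4 to 43.3 CPM (0.25 ± 0.43, then -0.46 ± 0.29). For Upk3b, Ing5-/- 1 and 2 of litter 1 lay above the wild-type range and Ing5-/- 3 and 4 below it; for Aldh1a2, Ing5-/- 1 lay above it, Ing5-/- 2 inside it and Ing5-/- 3 and 4 below it. None of the 3 passed in either fit.

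Over 27 epicardial genes tested the median was 0.25 with 27 above 0 (all genes: 53.2%), and -0.15 with 7 above 0 (all genes: 52.1%) without Ing5-/- 1. EdgeR called 0 in both fits. At an unadjusted p under 0.05, 5 and then 4 were higher (all genes: 6.09% and 3.09%). At the same threshold 0 and then 1 were lower (all genes: 3.5% and 2.1%). DESeq2 called Krt8 with all hearts (all genes: 0.228% higher) and 0 without Ing5-/- 1. The keratins, filament proteins of epithelia, kept their sign in both. Krt8 was at 95.7, 57.5, 99.4 and 60.5 CPM against 50.9 to 56.1 CPM, with no overlap (0.56 ± 0.15, edgeR adjusted p = 0.338; 0.45 ± 0.15, adjusted p = 0.703, without Ing5-/- 1). Krt19 was at 71.3, 63.9, 82.3 and 51.5 CPM against 44.7 to 53.1 CPM, with Ing5-/- 4 inside the wild-type range (0.45 ± 0.12, adjusted p = 0.32; 0.42 ± 0.13, adjusted p = 0.574, without Ing5-/- 1). Members of the series' subject thus had no common direction that held without Ing5-/- 1 and passed the test.

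The sum of 26 cardiomyocyte genes was lowest in Ing5-/- 1 (33399 CPM). It was 51141, 53459 and 46365 CPM in Ing5-/- 2, 3 and 4, against 49572 to 53927 CPM in wild-type hearts. Ing5-/- 4 thus also lay below the wild-type range. The sum of 15 genes of trabecular myocardium was 2207, 3563, 2756 and 2336 CPM in Ing5-/- 1 to 4, against 2973 to 3795.5 CPM. EdgeR and DESeq2 called 0 of the 15. Without Ing5-/- 1, 20 of the 26 cardiomyocyte genes were below 0 (all genes: 47.9%). The median of 26 cardiomyocyte genes was -0.18 with all hearts (22 below 0, all genes: 46.8% below 0) and -0.06 without Ing5-/- 1. EdgeR and DESeq2 called 0 in both fits. With edgeR, 6 and then 2 had a lower level at an unadjusted p under 0.05 (all genes: 3.5% and 2.1%). Tnnt2, cardiac troponin T, was at 1508 CPM in Ing5-/- 1 and at 2322.5, 2465 and 2108 CPM in the others, against 2255 to 2669.7 CPM in wild-type hearts. Myh6, a heavy chain of cardiac myosin, was at 3292, 3551, 4559 and 4659 CPM against 4159 to 5146 CPM (-0.25 ± 0.11, edgeR adjusted p = 0.502; -0.16 ± 0.09, adjusted p = 0.991, without Ing5-/- 1). A pair of genes of skeletal muscle went the other way. Tnni2, a fast-fibre troponin I, was at 40.9, 44.9, 54.8 and 32.7 CPM against 24.6 to 36.2 CPM (0.59 ± 0.14, DESeq2 adjusted p = 0.021, edgeR 0.275; 0.62 ± 0.15, DESeq2 0.0263, edgeR 0.37, without Ing5-/- 1). Cacna1s, the calcium channel of skeletal muscle, was at 13.3, 7.01, 9.55 and 7.35 CPM against 4.81 to 5.50 CPM, with no overlap (0.87 ± 0.18, DESeq2 0.00898, edgeR 0.23; 0.65 ± 0.16, DESeq2 0.0465, edgeR 0.32, without Ing5-/- 1).

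Besides Ing5, DESeq2 called Ugp2 and Zadh2 lower in both fits. Ugp2, which makes UDP-glucose for glycogen, was at 258, 269, 262 and 255 CPM in Ing5-/- hearts and at 316, 320, 288 and 314 CPM in wild-type hearts. The groups did not overlap and the spread within Ing5-/- hearts was 6.01 CPM (SD, n = 4). The log2 fold change was -0.25 ± 0.06 (edgeR adjusted p = 0.314; DESeq2 0.0124) and -0.24 ± 0.06 without Ing5-/- 1 (edgeR 0.368; DESeq2 0.0263). Zadh2, an oxidoreductase, was at 65.6, 70.3, 60.7 and 61.9 CPM against 75.2 to 83.6 CPM, with no overlap (-0.32 ± 0.07, edgeR adjusted p = 0.275, DESeq2 0.0208; -0.33 ± 0.07, edgeR 0.272, DESeq2 0.0284, without Ing5-/- 1). Fmr1nb, an X-linked gene known mainly from testis, was at 1.85, 1.91, 1.66 and 1.23 CPM against 0.104 to 0.662 CPM (2.49 ± 0.49, edgeR adjusted p = 0.172, DESeq2 0.000514; 2.44 ± 0.51, edgeR 0.193, DESeq2 0.00416, without Ing5-/- 1). Tac2, the precursor of neurokinin B, was at 10.3 and 4.97 CPM in the 2 Ing5-/- hearts of litter 1. It was at 0.515 and 0.23 CPM in Ing5-/- 3 and 4 and at 0.104 to 0.232 CPM in wild-type hearts.

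EdgeR called no gene of the blood, growth and ribosome lists. Haemoglobin genes took 3.22% of the reads of Ing5-/- 4 and 0.545% to 1.16% in the other 7 hearts, and 0 of the 6 measured genes was called by edgeR or DESeq2, with 0 at an unadjusted p under 0.05. Of 25 mitosis genes and 26 DNA replication genes, edgeR and DESeq2 called 0 in either fit. The medians were -0.07 and -0.03 (-0.02 and -0.01 without Ing5-/- 1). With all hearts 1 mitosis gene and 2 replication genes had an unadjusted edgeR p under 0.05 (all genes: 9.59%). Of 24 p53 targets, DESeq2 called Perp, lower, with all hearts (all genes: 0.0443% lower), and edgeR called 0. Perp was at 55.6, 75.0, 70.2 and 60.2 CPM against 82.1 to 84.2, with no overlap. DESeq2 did not call it without Ing5-/- 1 (adjusted p = 0.118). Of 33 ribosomal protein genes, 31 were above 0 in both fits (all genes: 53.2% and 52.1%), with medians of 0.18 and 0.14, 11 and then 5 higher at an unadjusted p under 0.05 (all genes: 6.09% and 3.09%) and 0 called by edgeR or DESeq2.

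The same loss of Ing5 was also measured where 1 Ing4 allele was missing, in 8 hearts that share no library with the comparison above but some litters. There edgeR called 183 of 15785 genes (1.16%; 120 higher, 0.76%; 63 lower, 0.399%), from the same fit. Here, 170 of the 183 (92.9%) had the same sign, against 60.1% of all genes, and 173 (94.5%) without Ing5-/- 1, against 63.4% of all genes. In the fit without Ing5-/- 1, 461 genes were called there (2.9%; 276 higher, 1.74%; 185 lower, 1.17%), and 421 of them (91.3%) had the same sign here. The median log2 fold change of the 120 was 0.33 here (0.36 without Ing5-/- 1) and 0.83 there; that of the 63 was -0.20 (-0.22) and -0.57. Without Ing4+/- 4 and Ing4+/- Ing5-/- 2, a fit added after seeing the data, edgeR called 38 genes there (0.238%), and 37 of them (97.4%) had the same sign here, against 57.8% of all genes. Since the genes were chosen by their values there, smaller values here are in part set by that choice. The interaction, which tests whether the effect of Ing5 loss differs with the Ing4 genotype, was called for 0 genes by edgeR in either fit, with 928 (5.88%) at an unadjusted p under 0.05 with all hearts and 710 (4.47%) without Ing5-/- 1; it was not run with the other tools.

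For the named genes the 2 losses stood side by side as follows, in the fit of all 16 hearts. Cox4i2 was 1.00 ± 0.16 here and 1.64 ± 0.16 with 1 Ing4 allele, where it was at 13.0 to 18.4 CPM against 4.54 to 5.82 CPM (edgeR adjusted p there 1.47e-05; interaction adjusted p = 0.83). Vegfa was 0.72 ± 0.12 here and 0.88 ± 0.12 there (adjusted p there 0.00105; interaction adjusted p = 0.92). Egln3 was 0.68 ± 0.14 and 1.19 ± 0.14 (0.000174; interaction 0.83), Notch3 0.53 ± 0.10 and 0.41 ± 0.10 (0.0459; interaction 0.927), and Tnni2 0.59 ± 0.14 and 1.48 ± 0.14 (1.47e-05; interaction 0.535). Fcrls was 3.81 ± 0.62 and 2.04 ± 0.51 (0.0537; interaction 0.842). For the glycolysis and hypoxia list, edgeR called 15 of 30 genes higher there (all genes: 0.76%) with a median of 0.52, and 0 here. An adjusted interaction p above the threshold does not show that the effects were equal.

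**Figure D4:**
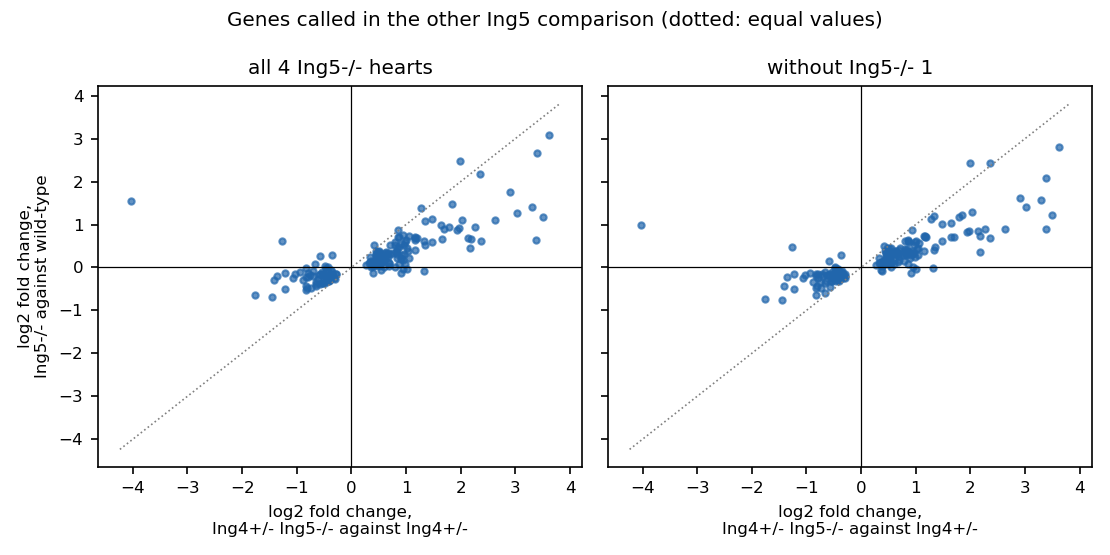
Each point is 1 of the 183 genes called between Ing4+/- Ing5-/- and Ing4+/- hearts, by its log2 fold change there (horizontal axis) and between Ing5-/- and wild-type hearts (vertical axis), with all hearts on the left and without Ing5-/- 1 on the right. Of the 183, 170 on the left and 173 on the right share their sign, and most lie closer to 0 than the dotted line of equal values.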

How the data were processed

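Total RNA of mouse embryonic hearts was made into stranded libraries, per the labels' protocols. The deposited values were raw read counts per gene, in 1 table of 16 libraries and 16 single tables with equal values; the deposited gene length (other) was not used. Per the submitters' processing notes, bcl2fastq, featureCounts and mm10 were used, with no versions, while for aligner and annotation the sources used here say nothing. Of 27179 gene IDs, 25275 (93.0%) matched a symbol in the RefSeq table of GRCm38.p6, and the others held 2.08% of the reads.

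Counts were fitted in R 4.3.3 with edgeR 4.0.16 (filterByExpr, TMM, quasi-likelihood with robust estimation, 4 group means, 16 libraries), and again with 15, leaving out Ing5-/- 1. Robust estimation was chosen after a first fit without it. Calls were made at 0.05 after Benjamini-Hochberg adjustment across every tested gene. The common biological coefficient of variation was 0.159. SE is the log2 fold change divided by the square root of F; CPM is from the fit of 16. Alternatives were DESeq2 1.42.0, limma-voom (limma 3.58.1), other filters and scaling, the 2 genotypes alone, litter or replicate number as a block, a Y-linked or haemoglobin covariate and each library left out; edgeR without robust estimation, the all-heart fit without Ing4+/- 4 and Ing4+/- Ing5-/- 2 and the alternatives for DESeq2 were added after seeing the data. The scripts were tested on simulated data. Between libraries of the same genotype, chi-square divided by its degrees of freedom was 8.82 to 102, so none was a repeat.

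The members and the 35 gene lists were chosen with earlier results of these data known. Genes named were the 12 largest rises and falls among called genes (at least 1 CPM, no overlap), up to 4 called members per list, Ing4, Ing5, Vegfa and 5 epicardial genes; genes called by DESeq2 and list members beyond these were chosen after their values were seen. Promoters were the first listed per gene, cut to the 250 bases before the start where 300 had been planned.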

Additional observations from a re-analysis of the deposited data

Results flagged for a closer look

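Of 134 sets of 4 hearts examined, 10 held a heart far from the other 3, by a gap whose share of the range of the set was above Dixon's 95% critical value; chance alone flags about 1 in 20 sets. Among single genes, Ing4 was at 28.2 CPM in wild-type 2, the lowest of its genotype, with the other wild-type hearts at 42.6 to 44.4 CPM. Wild-type 1 was the lowest of its genotype for Wt1 (66.3 CPM, others 68.1 to 68.2) and for Upk3b (157 CPM, others 170 to 173). Egln3 was at 25.4 CPM in Ing5-/- 3 and at 16.4 to 17.4 CPM in the other Ing5-/- hearts. Among summed lists, Ing5-/- 1 was highest for skeletal and pharyngeal muscle (100.3 CPM, others 55.1 to 62.0) and for Hox clusters (53.8 CPM, others 16.8 to 20.8), and lowest for atrium and inflow (1852 CPM, others 2261 to 2315). Ing5-/- 4 was highest for haemoglobin (32918 CPM, others 5535 to 9715) and for other erythroid genes (3027 CPM, others 833 to 1084). Wild-type 1 was lowest for the list of growth factor signalling genes (WNT, FGF, BMP, TGF-beta) (2212 CPM, others 2271 to 2281).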

How the results depend on the processing

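With all hearts, the 2 edgeR calls became 0 with the 2 genotypes alone, limma-voom, litter as a block, a replicate block, the Y-linked covariate, the haemoglobin covariate, no robust estimation or without Ing4+/- 4 and Ing4+/- Ing5-/- 2, and 43 with DESeq2; leaving out 1 library gave 0 to 15, with 13 without Ing5-/- 2, 15 without Ing5-/- 4, 1 without Ing5-/- 3 and 0 without Ing5-/- 1 or any wild-type heart. Without Ing5-/- 1, the count of 0 became 3 with no filter (Cox4i2, Fcrls and Ing5), 27 with DESeq2 and 4 also without Ing4+/- 4 and Ing4+/- Ing5-/- 2; leaving out a further library gave 0 to 24, with 24 without Ing5-/- 2 and 5 without Ing5-/- 4. The DESeq2 count of 43 became 1 with litter as a block and 13 with the 2 genotypes alone, and 11 to 185 with 1 library left out; that of 27 became 1 with litter as a block, and 5 to 141 with a further library left out. Of the named log2 fold changes, those of Wt1 (-0.14), Tbx18 (-0.18), Tcf21 (-0.42), Aldh1a2 (-0.46) and Upk3b (-0.37) reversed without Ing5-/- 1, as did Tcf21 (-0.0567), Aldh1a2 (-0.0629) and Upk3b (-0.0257) with limma-voom, Tcf21 (-0.000884) with a replicate block and Pdk1 (-0.0252) with litter as a block; without Ing5-/- 1, Wt1 reversed when Ing5-/- 4 was left out too. Over the libraries left out in turn, the values ran from -0.14 to 0.49 for Wt1, -0.18 to 0.55 for Tbx18, -0.42 to 0.35 for Tcf21, -0.46 to 0.49 for Aldh1a2 and -0.37 to 0.44 for Upk3b, and without Ing5-/- 1 from -0.22 to 0.0104 for Wt1. The cause was not tested. Replicate numbers were not used as pairs in the main fits. In the fit of all 16, residuals of same-numbered Ing5-/- and wild-type hearts correlated at 0.0885 to 0.202, with 1 pair under 0.1. There each Ing5-/- heart correlated best with the wild-type heart of its own number. In the fit without Ing5-/- 1 (0.0335 to 0.103), Ing5-/- 2 did not. Whether hearts of the same number shared a step of processing was not tested. Genes of a few counts per library, such as Fcrls and Ccl6, are limited by depth.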
